A study of Homo sapiens with 9 samples.

Results

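The genes described here are 46 human genes of the endoplasmic reticulum (ER) stress response and the integrated stress response: ER chaperones and their co-chaperones, protein disulfide isomerases, components of ER-associated degradation (ERAD), the sensors of the unfolded protein response, and ATF4 with its target genes. They were taken by name, and all 46 were found among the 58734 Ensembl genes of the count table and among the 16686 genes with enough counts to be tested. Their counts ran from 80 to 31321 per library. Poly-A selected, stranded RNA sequencing was done on HEK293T, an established line from embryonic kidney that expresses the large T antigen of SV40. Cells were transfected with siRNA against SIN3A, siRNA against SIN3B or a control siRNA, with 3 libraries in each group, all at 10 nM and all harvested after 36 h. The siRNAs were Silencer Select reagents delivered with Lipofectamine RNAiMAX, and no group received a chemical inducer of ER stress. SIN3A and SIN3B are paralogous scaffolds of a histone deacetylase complex, and the design sets the loss of each beside the other. The labels do not say whether libraries of a group came from separate cultures or how many siRNA sequences each group received, so the p-values reflect variation among 3 libraries per group that could be technical in part.

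The unfolded protein response starts from 3 sensors in the ER membrane. ERN1 (IRE1 alpha) is an RNase that splices XBP1 mRNA, ATF6 is cut in the Golgi to free a transcription factor, and EIF2AK3 (PERK) phosphorylates the translation factor eIF2. XBP1 and ATF6 raise transcription of chaperones and ERAD genes through the ER stress response element (ERSE) in their promoters. Phosphorylated eIF2, which other kinases also produce when amino acids are short, raises translation of ATF4, and ATF4 with its partners raises genes of amino acid supply, redox balance and apoptosis through the C/EBP-ATF response element (CARE). HEK293T cells, like other secreting and growing cells, use both sets of genes without added stress. Gene counts do not show XBP1 splicing, ATF6 cleavage, eIF2 phosphorylation or ATF4 protein.

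The promoters of the 46 genes are shown first because XBP1, ATF6 and ATF4 act through these elements. RefSeq windows of GRCh38.p14 ran from 250 bases before to 50 bases after a start, and a gene could have several. They were at hand for 42 of the 46 genes, and not for DERL1, PDIA3, PSPH and SHMT2. ERSE was searched as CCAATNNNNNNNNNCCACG, ERSE-II as ATTGGNCCACG and CARE as TGATGNAA, on both strands, and no 2 different motifs overlapped in these genes. A gene was counted if any of its windows, 35116 over all genes, held the motif. ERSE stood in 7 of the 42 genes and in 0.0916% of all 27305 genes with a window. ERSE-II stood in 3 of the 42 and in 0.0696% of all genes, and CARE in 6 of the 42 and in 4.46% of all genes. Of the 42 genes, 32 held neither ERSE nor ERSE-II and 36 held no CARE. A match is a description of letters and not a site of binding. The ERSE copies of the 7 genes, read 5′ to 3′ along the motif with the motif in capitals and 8 flanking bases on each side, are these:
HSPA5, chr9:125241383-125241417, minus strand: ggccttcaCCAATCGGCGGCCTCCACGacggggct
HSP90B1, first copy, chr12:103930208-103930242, plus strand: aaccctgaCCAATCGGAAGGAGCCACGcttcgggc
HSP90B1, second copy, chr12:103930313-103930347, minus strand: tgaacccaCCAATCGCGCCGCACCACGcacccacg
CALR, chr19:12938376-12938410, minus strand: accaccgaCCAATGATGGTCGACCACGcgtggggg
CANX, chr5:179698770-179698804, plus strand: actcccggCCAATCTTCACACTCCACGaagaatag
CRELD2, chr22:49918546-49918580, minus strand: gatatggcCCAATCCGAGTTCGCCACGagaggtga
PDIA6, chr2:10812845-10812879, minus strand: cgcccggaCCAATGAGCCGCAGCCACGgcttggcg
XBP1, chr22:28800595-28800629, minus strand: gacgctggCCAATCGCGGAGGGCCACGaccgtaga

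The ERSE-II copies of 3 genes and the CARE copies of 6 genes follow in the same form. HERPUD1 held both kinds, and HYOU1 held 2 copies of ERSE-II.
HERPUD1 ERSE-II, chr16:56932017-56932043, plus strand: ggacgccgATTGGGCCACGttgggaga
HYOU1 ERSE-II, first copy, chr11:119057266-119057292, plus strand: gcgtactcATTGGACCACGtcccaggc
HYOU1 ERSE-II, second copy, chr11:119057372-119057398, plus strand: ggcctgggATTGGACCACGtcacgggg
SDF2L1 ERSE-II, chr22:21642106-21642132, minus strand: gggttttgATTGGTCCACGcttccgag
ASNS CARE, chr7:97872461-97872484, minus strand: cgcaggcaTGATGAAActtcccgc
ATF3 CARE, chr1:212565208-212565231, plus strand: ggtcaggaTGATGGAAggctgtca
CEBPG CARE, chr19:33374063-33374086, plus strand: gcggcgtcTGATGCAAcctgccgg
CHAC1 CARE, chr15:40953254-40953277, minus strand: ggcaggagTGATGCAAcggcaggg
HERPUD1 CARE, chr16:56931958-56931981, minus strand: gcacgggcTGATGCAAcccgccgc
SLC3A2 CARE, chr11:62881728-62881748, minus strand: ggagcTGATGTAAggagtcct

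The whole RefSeq window of HSPA5 is printed because HSPA5 encodes BiP, the chaperone whose release opens the sensors and the usual readout of ER stress. It covers chr9:125241294-125241593 on the minus strand, with its ERSE in capitals 66 bases before the start.
HSPA5: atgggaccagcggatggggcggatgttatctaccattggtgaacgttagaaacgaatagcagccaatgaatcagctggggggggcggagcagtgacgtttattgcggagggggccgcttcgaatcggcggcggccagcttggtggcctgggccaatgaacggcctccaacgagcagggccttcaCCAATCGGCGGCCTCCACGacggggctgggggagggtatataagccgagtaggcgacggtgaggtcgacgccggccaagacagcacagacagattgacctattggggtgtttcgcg

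The libraries held 22542798 to 27084884 counts each, of which the 46 genes took 1.10% to 1.25%. Nearly all counts were multiples of 4, so the smallest step was taken as 4 counts and the floor of 3 steps, 12 counts, lay at 0.442 to 0.552 CPM, below every gene described here. Levels are given as CPM, which are counts scaled to library size with TMM factors, with the SD over 3 libraries. SIN3A averaged 47.3 ± 2.5 CPM in SIN3A siRNA libraries and 145.5 ± 4.0 CPM in control libraries, and SIN3B averaged 55.1 ± 3.6 CPM in SIN3B siRNA libraries and 96.2 ± 4.7 CPM in control libraries. The 3 SIN3A siRNA libraries lay farther apart (chi-square per degree of freedom 3.77 to 7.97) than those of SIN3B siRNA (1.46 to 2.07) or control (1.61 to 1.93), and a single spread per gene was fitted over all groups. Of 8 HEK293T markers, 3 fell and none rose in each knockdown, and their summed level was 1101.8 to 1367.8 CPM with SIN3A siRNA, 997.4 to 1062.3 CPM with SIN3B siRNA and 1309.9 to 1444 CPM in control libraries. Of 12 markers of epithelium, fibroblasts, blood and liver, 5 had enough counts to be tested and their sum was 34.96 to 44.66, 40.66 to 43.49 and 40.86 to 44.50 CPM in SIN3A siRNA, SIN3B siRNA and control libraries. The epithelial markers CDH1 and EPCAM fell and the fibroblast marker COL1A1 rose (0.39 ± 0.13) with SIN3A siRNA. The rise of COL1A1 was lost under upper-quartile scaling and under limma on FPKM. The part of these markers in the results below was not tested. Fewer cells of a type and less RNA per cell cannot be told apart in such bulk samples.

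With SIN3A siRNA, 7 of the 20 genes around ATF4 fell and none rose, and genes of the ER were split. Of those 7 falls only that of DDIT4 passed without control replicate 3, and 4 passed without control replicate 1. Of the 46 genes, 5 rose and 11 fell against control, which is 10.9% and 23.9% of them, where 12.2% of all genes tested rose and 10.8% fell. The threshold was an adjusted p of 0.05 (two-sided quasi-likelihood test of edgeR, Benjamini-Hochberg over all genes), and a gene is said to pass by this test on all 9 libraries unless another tool or setting is named. Their median log2 fold change was -0.06, and that of all genes tested was -0.0016. The 26 ER genes held all 5 rises (CALR, DNAJB9, SEL1L, EDEM1 and DERL1) and 4 of the falls (DNAJC3, HERPUD1, XBP1 and EIF2AK3). The 20 genes around ATF4 held the other 7 falls (ATF4, ATF3, ATF5, DDIT4, STC2, PHGDH and MTHFD2). Changes were small: the largest fall was that of DDIT4, to 59.9% of the control level, and the largest rise that of DNAJB9, to 159.7% of it. Without control replicate 3 only 3 of the 46 fell and 3 rose, 5 fell without control replicate 1, and 3 rose without control replicate 2.

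With SIN3B siRNA, 4 genes rose (DNAJB9, DNAJC3, SEL1L and DERL1) and 6 fell (MANF, PDIA4, XBP1, ERN1, DDIT4 and PSPH), which is 8.7% and 13% of the 46, where 12% of all genes tested rose and 11.6% fell (edgeR, same threshold). Both shares lay near those of all genes, and without control replicate 1 only 2 rose. With GC content and exon length as offsets, chosen after seeing the data, the rises of DNAJB9, DNAJC3 and SEL1L were lost. In that setting 1 of the 26 ER genes rose and 6 fell, and 2 of the 20 genes around ATF4 rose and 3 fell. The median was -0.0049 for the 46 genes and -0.015 for all genes. MANF fell to 39.0% of the control level, ERN1 to 53.6% and DDIT4 to 55.7%. Whether the number of genes changed differs between the knockdowns was not tested, and its order depended on the fit: with only the 6 libraries compared, 4 rose and 7 fell with SIN3A siRNA, and 5 rose and 10 fell with SIN3B siRNA.

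**Figure D1:**
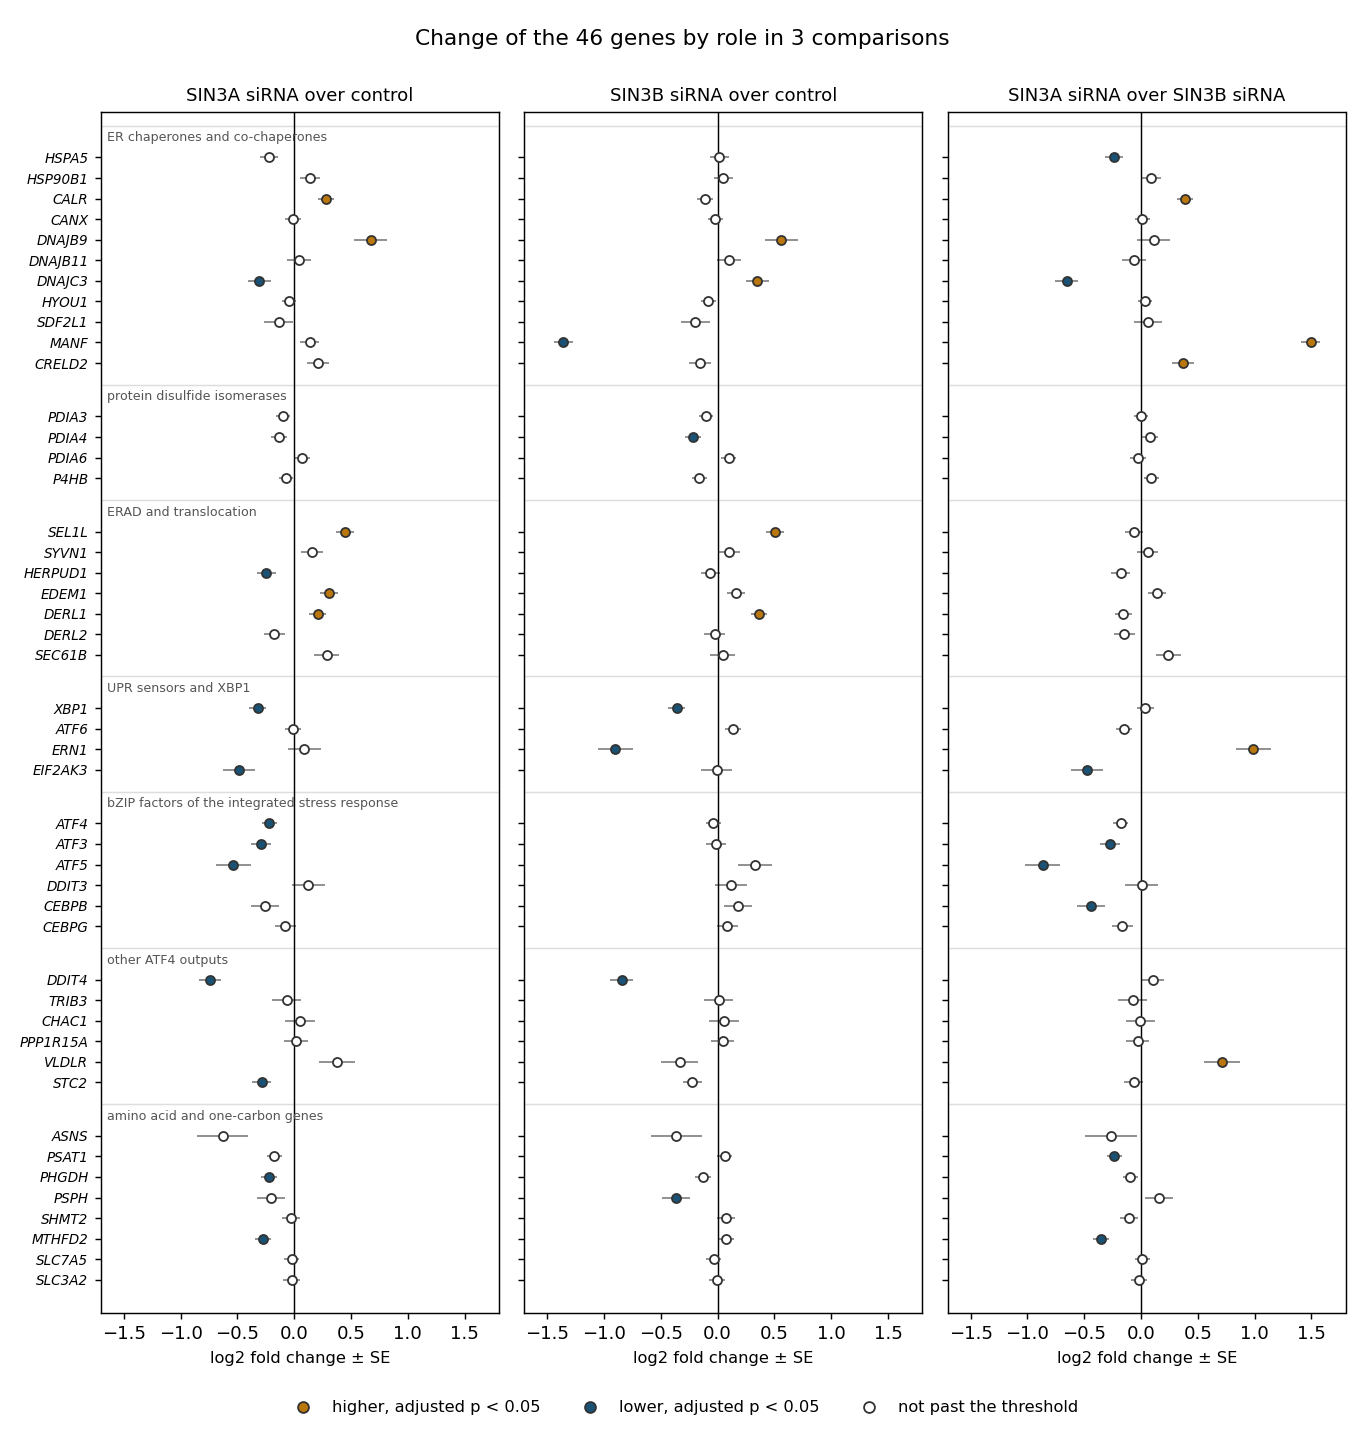
Log2 fold change (x axis, points with the standard error of the edgeR fit as bars) of the 46 genes, in rows grouped by role, for SIN3A siRNA over control, SIN3B siRNA over control and SIN3A siRNA over SIN3B siRNA. Filled points passed an adjusted p of 0.05, and most of the 46 genes lie within 0.5 of 0, with MANF at -1.36 under SIN3B siRNA as the farthest point against control.

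Among the ER chaperones, the abundant ones moved little. HSPA5 (ENSG00000044574, chr9:125234853-125241330 in GENCODE 29) had 1041, 927 and 834 CPM with SIN3A siRNA, 1121, 1059 and 1129 CPM with SIN3B siRNA, and 1170, 988 and 1114 CPM in control libraries. One SIN3A siRNA library lay among the controls, and SIN3B siRNA and control libraries overlapped. Its log2 fold change was -0.22 ± 0.08 with SIN3A siRNA (edgeR adjusted p = 0.052) and 0.02 ± 0.08 with SIN3B siRNA (adjusted p = 0.92), so neither passed the threshold. It was called lower with SIN3A siRNA in 7 of 18 other settings, DESeq2 and upper-quartile factors among them, with adjusted p of 0.0029 to 0.236 over the 18. HSP90B1 (GRP94), its partner chaperone, had 1315, 1101 and 1020 CPM with SIN3A siRNA, 1002, 1080 and 1154 CPM with SIN3B siRNA, and 1132, 1020 and 971 CPM in control libraries, and all 3 groups overlapped. CANX, the membrane lectin chaperone, averaged 1153 ± 51, 1145 ± 13 and 1161 ± 74 CPM in SIN3A siRNA, SIN3B siRNA and control libraries. HYOU1 (GRP170), DNAJB11 and SDF2L1, cofactors of BiP, had log2 fold changes of -0.20 to 0.10 against control and passed the test in neither knockdown.

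CALR, the soluble lectin chaperone next to CANX, behaved otherwise. It averaged 1248 ± 95 CPM with SIN3A siRNA, against 1029 ± 70 CPM in control libraries, and the 3 SIN3A siRNA libraries lay above the 3 controls (log2 fold change 0.28 ± 0.07, edgeR adjusted p = 0.0078). The rise passed in 17 of 18 other settings and was lost without control replicate 3 (0.24, adjusted p = 0.054). With SIN3B siRNA it averaged 952.6 ± 12.9 CPM, which overlapped the controls.

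DNAJB9 (ERdj4), a BiP co-chaperone that delivers substrates for ERAD and a known XBP1 target, rose in both knockdowns. It had 24.7, 16.3 and 21.0 CPM with SIN3A siRNA and 18.4, 19.0 and 19.8 CPM with SIN3B siRNA. Control libraries had 11.3, 13.6 and 13.9 CPM, so that every knockdown library lay above every control. The log2 fold changes were 0.67 ± 0.15 (edgeR adjusted p = 0.0025) with SIN3A siRNA and 0.56 ± 0.15 (adjusted p = 0.0079) with SIN3B siRNA, and both comparisons share the same 3 controls. The rise with SIN3A siRNA passed in all 18 other settings. With SIN3B siRNA it was lost without control replicate 1 (0.47, adjusted p = 0.054) and with GC content and exon length added as offsets (0.32, adjusted p = 0.083). Exons of THAP5 overlap 183 bases of the exons of DNAJB9 on the other strand.

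DNAJC3 (P58IPK), a BiP co-chaperone that also restrains PERK, was the only gene of the 46 called in opposite directions. It had 31.3, 32.6 and 40.6 CPM with SIN3A siRNA, 55.9, 54.8 and 53.8 CPM with SIN3B siRNA, and 41.0, 46.3 and 41.8 CPM in control libraries. The SIN3A siRNA libraries all lay below the controls and the SIN3B siRNA libraries all lay above them, although SIN3A siRNA replicate 3 and control replicate 1 were close. It fell by 0.31 ± 0.10 on the log2 scale with SIN3A siRNA (edgeR adjusted p = 0.036), a call kept in 8 of 18 other settings and lost without any 1 library other than SIN3A siRNA replicate 3 (adjusted p up to 0.168). It rose by 0.35 ± 0.10 with SIN3B siRNA (adjusted p = 0.015), a call lost with the GC and length offsets (0.06, adjusted p = 0.70) and without control replicate 1 (0.31), control replicate 3 (0.33), SIN3B siRNA replicate 1 (0.32) or replicate 2 (0.35), at adjusted p of 0.054 to 0.076. The direct difference between the knockdowns passed in all 18 other settings (-0.78 to -0.52).

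MANF, a secreted neurotrophic factor held in the ER by BiP and induced by ER stress, had the largest change of the 46 genes. It lies at chr3:51385047-51389397 (ENSG00000145050). MANF had 245, 204 and 192 CPM with SIN3A siRNA, 79.4, 75.0 and 73.3 CPM with SIN3B siRNA, and 204, 193 and 187 CPM in control libraries. The SIN3B siRNA libraries lay far below all the others, and SIN3A siRNA and control libraries overlapped. It fell by 1.36 ± 0.08 on the log2 scale with SIN3B siRNA (edgeR adjusted p = 1.2e-09), in all 18 other settings (-1.41 to -1.28). CRELD2, a disulfide isomerase family member that is induced together with MANF by ER stress, averaged 51.9 ± 6.8, 40.2 ± 0.6 and 44.9 ± 0.9 CPM in SIN3A siRNA, SIN3B siRNA and control libraries and passed the test in neither knockdown against control.

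**Figure D2:**
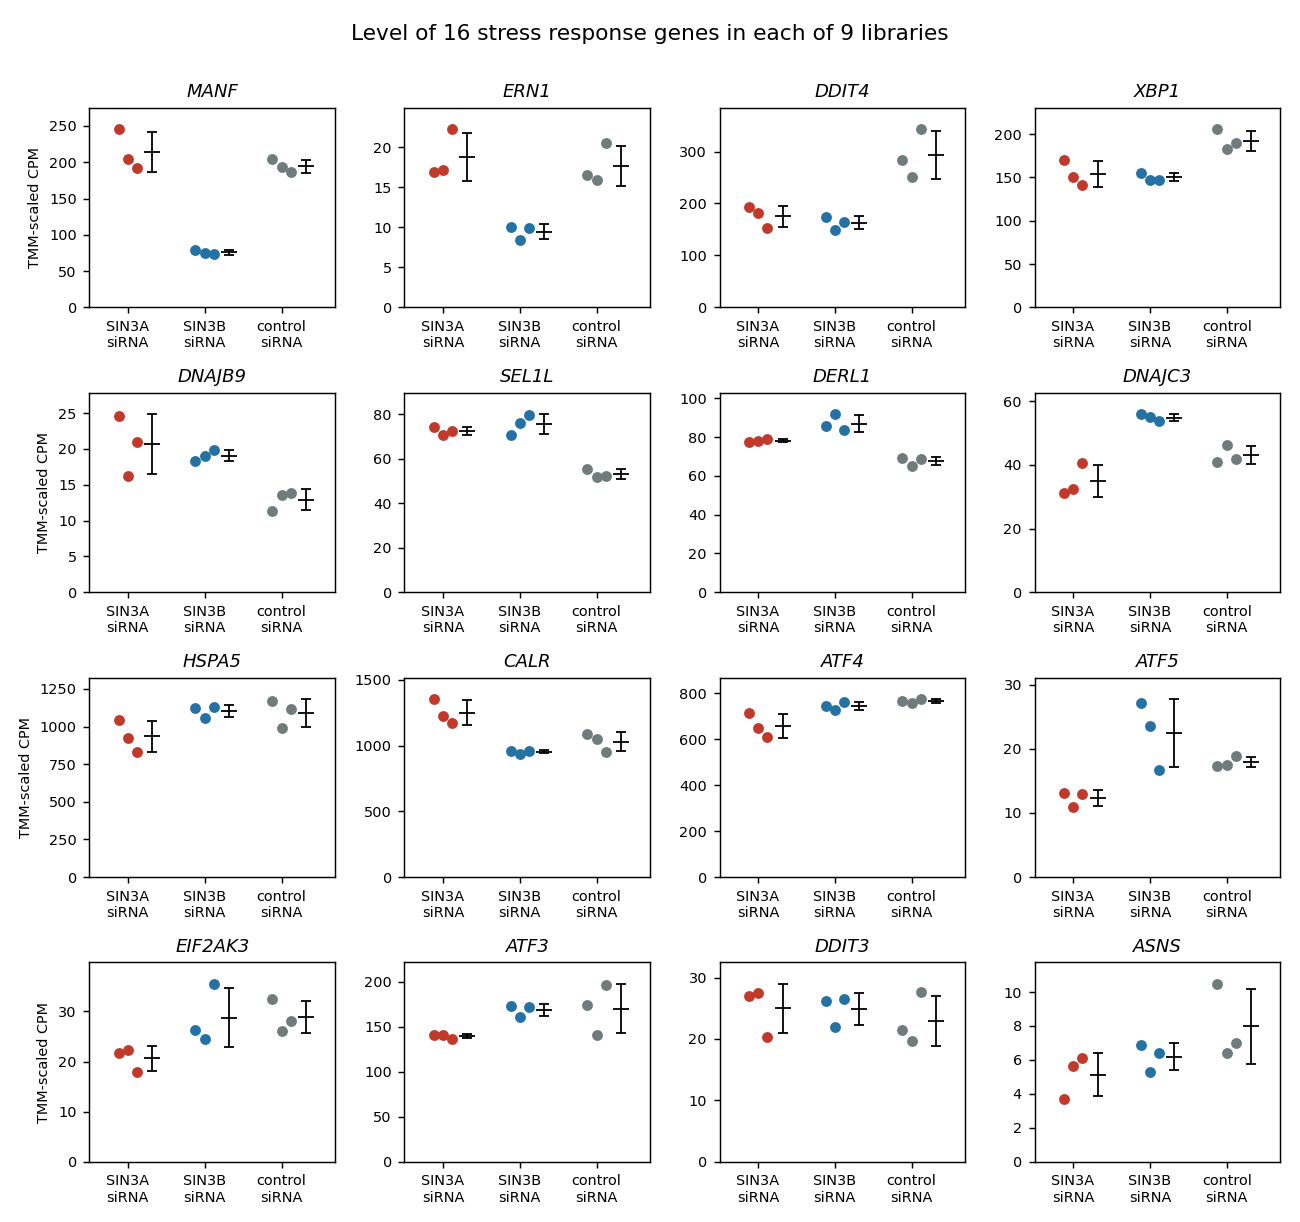
TMM-scaled CPM (y axis, from 0) of 16 of the genes in each of the 3 SIN3A siRNA (red), 3 SIN3B siRNA (blue) and 3 control libraries (grey), with the mean and SD beside them in black. MANF and ERN1 are low in the SIN3B siRNA libraries alone, DDIT4 and XBP1 are low and DNAJB9 and SEL1L high in both knockdowns, and DDIT3 overlaps in all 3 groups.

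The 4 protein disulfide isomerases, which form and shuffle disulfide bonds, changed little. PDIA4 averaged 520.4 ± 41.4, 492.4 ± 23.2 and 570.9 ± 18.2 CPM in SIN3A siRNA, SIN3B siRNA and control libraries, and fell by 0.21 ± 0.07 with SIN3B siRNA (edgeR adjusted p = 0.029). That call was lost under limma on FPKM (adjusted p = 0.062), with the GC and length offsets (-0.15) and without control replicate 1 (-0.19), control replicate 3 (-0.21), SIN3B siRNA replicate 2 (-0.19) or replicate 3 (-0.20). PDIA3, PDIA6 and P4HB had log2 fold changes of -0.16 to 0.10 and passed in neither knockdown in edgeR, although P4HB was called lower with SIN3B siRNA by DESeq2 and in 5 of 18 other settings in all. With SIN3A siRNA none of the 4 passed in edgeR, DESeq2 or limma, and none had an unadjusted edgeR p under 0.05.

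In ERAD, the pathway that retrotranslocates misfolded proteins to the proteasome, the membrane scaffold rose in both knockdowns. SEL1L, the adaptor of the HRD1 ubiquitin ligase (chr14:81471549-81533861), had 74.1, 70.6 and 72.4 CPM with SIN3A siRNA. SIN3B siRNA libraries had 70.9, 76.2 and 79.7 CPM, and control libraries 55.6, 51.8 and 52.2 CPM. Every knockdown library lay above every control. It rose by 0.44 ± 0.08 with SIN3A siRNA (edgeR adjusted p = 0.00051) in all 18 other settings, and by 0.51 ± 0.08 with SIN3B siRNA (adjusted p = 0.00012), a call lost with the GC and length offsets (0.19, adjusted p = 0.064). SYVN1, the HRD1 ligase itself, averaged 112.2 ± 17.7, 107.9 ± 6.6 and 100.5 ± 7.3 CPM and passed in neither.

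DERL1, a rhomboid pseudoprotease of the retrotranslocation channel, had 77.5, 77.9 and 79.0 CPM with SIN3A siRNA, 85.7, 91.8 and 83.6 CPM with SIN3B siRNA, and 69.1, 65.1 and 68.5 CPM in control libraries. Both knockdowns lay above the controls without overlap. The rise of 0.37 ± 0.07 with SIN3B siRNA (edgeR adjusted p = 0.0013) passed in all 18 other settings. The rise of 0.21 ± 0.07 with SIN3A siRNA (adjusted p = 0.048) passed in only 4, and was lost without any 1 library other than SIN3A siRNA replicate 1 (0.18 to 0.23, adjusted p up to 0.18). Its paralog DERL2 averaged 42.9 ± 1.9, 47.5 ± 3.0 and 48.4 ± 2.9 CPM and passed in neither.

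EDEM1, a mannosidase-like lectin that sends glycoproteins to ERAD, averaged 86.1 ± 7.5 CPM with SIN3A siRNA, against 69.6 ± 3.0 CPM in control libraries. That rise (0.31 ± 0.08, edgeR adjusted p = 0.0087) was lost without control replicate 2 (0.27, adjusted p = 0.061). HERPUD1, an ERAD scaffold induced by both arms, had 100, 108 and 97.0 CPM with SIN3A siRNA. SIN3B siRNA libraries had 120, 110 and 116 CPM, and control libraries 128, 104 and 130 CPM. The SIN3A siRNA libraries overlapped control replicate 2. The call of a fall of 0.24 ± 0.08 with SIN3A siRNA (adjusted p = 0.039) held in 9 of 18 other settings, and was lost without control replicate 1 (-0.20) or 3 (-0.18), SIN3A siRNA replicate 1 (-0.22) or 3 (-0.21), or SIN3B siRNA replicate 2 or 3 (both -0.24), at adjusted p up to 0.224. SEC61B, a subunit of the translocon through which proteins enter the ER, averaged 101.6 ± 22.52 CPM with SIN3A siRNA, where replicate 1 was highest, and 85.8 ± 3.3 and 83.3 ± 6.9 CPM in SIN3B siRNA and control libraries, and passed in neither.

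The transcript of XBP1, the factor that IRE1 activates by splicing, was lower in both knockdowns. XBP1 (chr22:28794555-28800597) had 170, 151 and 141 CPM with SIN3A siRNA, 156, 147 and 147 CPM with SIN3B siRNA, and 205, 183 and 189 CPM in control libraries. Every knockdown library lay below every control. It fell by 0.32 ± 0.07 with SIN3A siRNA (edgeR adjusted p = 0.004) and by 0.36 ± 0.07 with SIN3B siRNA (adjusted p = 0.0015), each in all 18 other settings. The counts sum spliced and unspliced XBP1.

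The 3 sensors differed from each other. ERN1 (chr17:64039142-64130819) had 16.9, 17.2 and 22.2 CPM with SIN3A siRNA and 10.1, 8.40 and 9.92 CPM with SIN3B siRNA. In control libraries ERN1 had 16.5, 15.97 and 20.5 CPM. SIN3B siRNA libraries lay below all the others, a fall of 0.90 ± 0.15 (edgeR adjusted p = 0.00023) that passed in all 18 other settings, and SIN3A siRNA libraries overlapped the controls. EIF2AK3 (chr2:88556741-88627576) showed the other pattern, with 21.7, 22.4 and 17.9 CPM with SIN3A siRNA, 26.3, 24.5 and 35.5 CPM with SIN3B siRNA, and 32.4, 26.1 and 28.1 CPM in control libraries. It fell by 0.48 ± 0.14 with SIN3A siRNA (adjusted p = 0.016), a call lost under limma on FPKM (adjusted p = 0.0855) and without control replicate 1 (-0.39, adjusted p = 0.099) or SIN3A siRNA replicate 3 (-0.39, adjusted p = 0.060). SIN3B siRNA libraries overlapped the controls. ATF6 averaged 88.2 ± 1.4, 97.99 ± 2.6 and 89.0 ± 2.4 CPM in SIN3A siRNA, SIN3B siRNA and control libraries, and its log2 fold change of 0.14 ± 0.07 with SIN3B siRNA did not pass (adjusted p = 0.17).

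Of the 20 genes around ATF4, none rose and 7 fell with SIN3A siRNA, a number that was 1 without control replicate 3, 4 without control replicate 1, and 5 to 8 without any 1 of the other libraries. The 7 falls are 35% of the 20, where 10.8% of all genes tested fell and 12.2% rose. In all, 16 of the 20 had a negative log2 fold change, beside 8367 of all 16686 genes tested, and the median was -0.19. Without SIN3A siRNA replicate 3, 1 of them was called higher (VLDLR). At an unadjusted edgeR p under 0.05, 1 was higher and 9 were lower, while DESeq2 called 0 higher and 9 lower and limma on FPKM 0 higher and 4 lower. With SIN3B siRNA none of the 20 rose and 2 fell (10%), where 12% of all genes tested rose and 11.6% fell. Of the 20, 10 were negative, beside 8635 of all 16686 genes, and the median was 0.0026. Unadjusted edgeR p was under 0.05 in 1 higher and 3 lower, while DESeq2 called 0 and 2 and limma 0 and 1. With the GC and length offsets 2 were higher and 3 lower with SIN3B siRNA, and 0 and 9 with SIN3A siRNA.

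Among the transcription factors, ATF4 itself (chr22:39519695-39522685) had 715, 649 and 612 CPM with SIN3A siRNA, 745, 730 and 763 CPM with SIN3B siRNA, and 768, 756 and 775 CPM in control libraries. The SIN3A siRNA libraries lay below all the others. It fell by 0.22 ± 0.07 (edgeR adjusted p = 0.023), a call lost in a fit of the 6 libraries compared (adjusted p = 0.072) and without control replicate 1 (-0.22), control replicate 3 (-0.20), SIN3A siRNA replicate 2 (-0.21) or replicate 3 (-0.17), at adjusted p of 0.062 to 0.105. Its log2 fold change with SIN3B siRNA was -0.04 ± 0.07.

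ATF3, a stress-induced repressor, had 141, 140 and 137 CPM with SIN3A siRNA, 172, 160 and 171 CPM with SIN3B siRNA, and 174, 141 and 196 CPM in control libraries. The highest SIN3A siRNA library, at 140.6 CPM, was just below the lowest control, at 140.9 CPM. The fall of 0.29 ± 0.09 (edgeR adjusted p = 0.023) was lost under limma on FPKM (adjusted p = 0.125) and without control replicate 1 (-0.27), control replicate 3 (-0.16) or SIN3A siRNA replicate 1 (-0.28), at adjusted p up to 0.235. ATF5, a factor translated in the same way as ATF4, had 13.1, 10.96 and 13.0 CPM with SIN3A siRNA. SIN3B siRNA libraries had 27.09, 23.6 and 16.6 CPM, and control libraries 17.3, 17.5 and 18.8 CPM. All SIN3A siRNA libraries lay below the rest, while those with SIN3B siRNA lay on both sides of the controls. It fell by 0.54 ± 0.16 with SIN3A siRNA (adjusted p = 0.017), a call lost under limma on FPKM (adjusted p = 0.0915) and without control replicate 3 (-0.49, adjusted p = 0.075) or SIN3A siRNA replicate 2 (-0.46, adjusted p = 0.068). Exons of NUP62 overlap 563 bases of the exons of ATF5 on the other strand. Whether reads were counted by strand is not given in the sources used here, so the values of ATF5 carry that uncertainty.

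DDIT3 (CHOP), the pro-apoptotic factor at the end of the PERK arm, had 27.05, 27.5 and 20.4 CPM with SIN3A siRNA. SIN3B siRNA libraries had 26.2, 22.0 and 26.6 CPM, and control libraries 21.5, 19.7 and 27.6 CPM. The groups overlapped fully (log2 fold changes 0.13 ± 0.14 and 0.12 ± 0.14). CEBPB and CEBPG, dimer partners of ATF4, averaged 17.0 ± 2.6 and 80.4 ± 8.1 CPM with SIN3A siRNA, 23.0 ± 1.0 and 90.0 ± 0.9 CPM with SIN3B siRNA, and 20.2 ± 1.5 and 84.8 ± 9.7 CPM in control libraries, and passed in neither comparison with control.

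The clearest fall among ATF4's outputs was shared by both knockdowns. DDIT4 (REDD1), a stress-induced inhibitor of mTORC1 at chr10:72273920-72276036, had 192, 181 and 153 CPM with SIN3A siRNA, 175, 149 and 165 CPM with SIN3B siRNA, and 285, 252 and 342 CPM in control libraries. Every knockdown library lay below every control by a wide margin. It fell by 0.74 ± 0.10 (edgeR adjusted p = 3.2e-05) and 0.85 ± 0.10 (adjusted p = 5.8e-06), each in all 18 other settings. DDIT4 is also a target of p53, hypoxia and glucocorticoid signalling, so it does not report on ATF4 alone.

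Among the other outputs, STC2 fell with SIN3A siRNA and the rest did not pass in either knockdown. TRIB3, a pseudokinase that feeds back on ATF4, had 62.2, 52.9 and 47.0 CPM with SIN3A siRNA. SIN3B siRNA libraries had 62.0, 49.1 and 59.5 CPM and control libraries 58.3, 45.9 and 65.5 CPM, and all groups overlapped. CHAC1, which degrades glutathione, and PPP1R15A (GADD34), which dephosphorylates eIF2, had log2 fold changes of 0.02 to 0.06 and passed in neither knockdown. STC2, a secreted glycoprotein, averaged 190.6 ± 9.3, 199.1 ± 14.1 and 232.3 ± 29.4 CPM in SIN3A siRNA, SIN3B siRNA and control libraries. Its fall with SIN3A siRNA (0.28 ± 0.08, edgeR adjusted p = 0.018) overlapped control replicate 2 at 198.3 CPM and was lost under limma on FPKM (adjusted p = 0.096) and without control replicate 1 (-0.23), control replicate 3 (-0.22) or SIN3A siRNA replicate 1 (-0.23), at adjusted p up to 0.13. VLDLR, a lipoprotein receptor, had 19.0, 15.03 and 13.3 CPM with SIN3A siRNA and 9.795, 9.435 and 9.60 CPM with SIN3B siRNA. In control libraries VLDLR had 13.2, 9.86 and 13.3 CPM, and it passed against control in neither knockdown. Exons of VLDLR-AS1 overlap 738 bases of those of VLDLR on the other strand.

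All 8 genes of amino acid supply and one-carbon metabolism had a negative log2 fold change with SIN3A siRNA (-0.63 to -0.02). In edgeR 2 of them passed, while DESeq2 and upper-quartile factors each called 4 lower, with ASNS and PSAT1 added. PHGDH, the first enzyme of serine synthesis, averaged 458.2 ± 28.9 CPM with SIN3A siRNA and 534.4 ± 30.1 CPM in control libraries, a fall of 0.22 ± 0.07 (edgeR adjusted p = 0.023) that was lost in the fit of 6 libraries (adjusted p = 0.064) and without control replicate 3 (-0.16, adjusted p = 0.18) or SIN3A siRNA replicate 3 (-0.17, adjusted p = 0.077). MTHFD2, the mitochondrial folate enzyme, averaged 152.1 ± 4.9 and 183.4 ± 14.6 CPM, a fall of 0.27 ± 0.07 (adjusted p = 0.0086) that was lost only without control replicate 3 (-0.21, adjusted p = 0.085). Exons of SLC4A5 overlap 1324 bases of those of MTHFD2 on the other strand. With SIN3B siRNA, 5 of the 8 were negative and only PSPH, the last enzyme of serine synthesis, passed: it averaged 19.5 ± 0.3 CPM with SIN3B siRNA and 25.1 ± 2.2 CPM in control libraries (-0.36 ± 0.12, adjusted p = 0.038). That call was made in 11 of 18 other settings and was lost without control replicate 2 (-0.38) or 3 (-0.29) or any 1 SIN3B siRNA library (-0.38 to -0.35), at adjusted p up to 0.18.

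ASNS, asparagine synthetase and the textbook CARE gene, had 3.68, 5.63 and 6.11 CPM with SIN3A siRNA, 6.89, 5.31 and 6.40 CPM with SIN3B siRNA, and 10.49, 6.42 and 7.02 CPM in control libraries. The SIN3A siRNA libraries lay below the controls, but the change did not pass (-0.63 ± 0.23, edgeR adjusted p = 0.051). It was called lower in 7 of 18 other settings, DESeq2 and upper-quartile factors among them, with adjusted p of 0.024 to 0.311 over the 18. A second annotated gene, AC079781.5, shares 1985 bases of exon with ASNS on the same strand. The exon length of ASNS used for levels per length was 4455 bases. The deposited count of ASNS may therefore hold only part of its reads. PSAT1, between PHGDH and PSPH in serine synthesis, averaged 172 ± 9, 202.4 ± 1.2 and 194 ± 8.9 CPM in SIN3A siRNA, SIN3B siRNA and control libraries. SHMT2, SLC7A5 and SLC3A2, which interconvert serine and glycine or import large amino acids, had log2 fold changes of -0.03 to 0.08 and passed in neither knockdown.

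Genes that share a promoter element are few, and their counts are given beside the shares of all genes above, with no test. Of the 10 genes with an ERSE or ERSE-II, 1 rose (CALR) and 2 fell (HERPUD1 and XBP1) with SIN3A siRNA, and 1 fell (XBP1) with SIN3B siRNA, with medians of -0.03 and -0.07. Of the 32 genes with a window and neither element, 3 rose and 9 fell with SIN3A siRNA, and 3 rose and 4 fell with SIN3B siRNA. Of the 6 genes with a CARE, 2 fell with SIN3A siRNA (ATF3 and HERPUD1) and none passed with SIN3B siRNA in edgeR, where the 6 log2 fold changes had a median of -0.01.

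The direct comparison of the knockdowns has no control library on either side. The controls still entered the filter, the scaling and the spread per gene of the shared fit. Between SIN3A siRNA and SIN3B siRNA, 5 of the 46 genes were higher (CALR, MANF, CRELD2, ERN1 and VLDLR) and 8 were lower (HSPA5, DNAJC3, EIF2AK3, ATF3, ATF5, CEBPB, PSAT1 and MTHFD2). That is 10.9% and 17.4% of the 46, where 14.5% of all genes tested were higher and 12.6% lower (edgeR, same threshold). The median was -0.02 for the 46 genes and for all genes. The number lower was 5 without SIN3A siRNA replicate 2 and 4 without SIN3B siRNA replicate 3. The largest differences were 1.49 ± 0.08 for MANF (adjusted p = 1.3e-10), 0.99 ± 0.15 for ERN1 (adjusted p = 5.6e-05), -0.86 ± 0.15 for ATF5 (adjusted p = 0.00028), 0.71 ± 0.16 for VLDLR (adjusted p = 0.0022) and -0.65 ± 0.10 for DNAJC3 (adjusted p = 7.1e-05). In each of these 5 genes the 3 SIN3A siRNA libraries lay on one side of the 3 SIN3B siRNA libraries, and with CALR (0.39 ± 0.07) and MTHFD2 (-0.35 ± 0.07) they passed in all 18 other settings.

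The remaining differences were smaller. EIF2AK3 was lower with SIN3A siRNA by -0.48 ± 0.14 (edgeR adjusted p = 0.014), a call lost under limma on FPKM (adjusted p = 0.085) and without SIN3A siRNA replicate 3 (-0.38, adjusted p = 0.051) or SIN3B siRNA replicate 3 (-0.30, adjusted p = 0.15). CEBPB differed by -0.44 ± 0.13 and was lost without SIN3B siRNA replicate 3 (-0.41, adjusted p = 0.055). PSAT1 differed by -0.23 ± 0.07 and was lost without SIN3A siRNA replicate 2 (-0.19, adjusted p = 0.055). CRELD2 differed by 0.37 ± 0.10 and was lost under limma on FPKM (adjusted p = 0.070). ATF3 (-0.27 ± 0.09) was lost under limma on FPKM (adjusted p = 0.12) and without SIN3A siRNA replicate 1 (-0.27) or 2 (-0.28) or SIN3B siRNA replicate 1 (-0.24) or 3 (-0.26), at adjusted p up to 0.098. HSPA5 (-0.24 ± 0.08, adjusted p = 0.032) passed in 10 of 18 other settings and was lost without control replicate 3 (-0.23), SIN3A siRNA replicate 2 (-0.23) or 3 (-0.16), or any 1 SIN3B siRNA library (-0.27 to -0.22), at adjusted p up to 0.12.

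DNAJB9, SEL1L, DERL1, XBP1 and DDIT4, called in both knockdowns against the same 3 controls, did not pass in the direct comparison, with differences of -0.16 to 0.11. Over all 3 comparisons 25 of the 46 genes passed at least once, where 43.6% of all genes tested did, and 21 passed in none, among them HSP90B1, CANX, HYOU1, PDIA6, ATF6, DDIT3, TRIB3, CHAC1 and PPP1R15A.

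**Figure D3:**
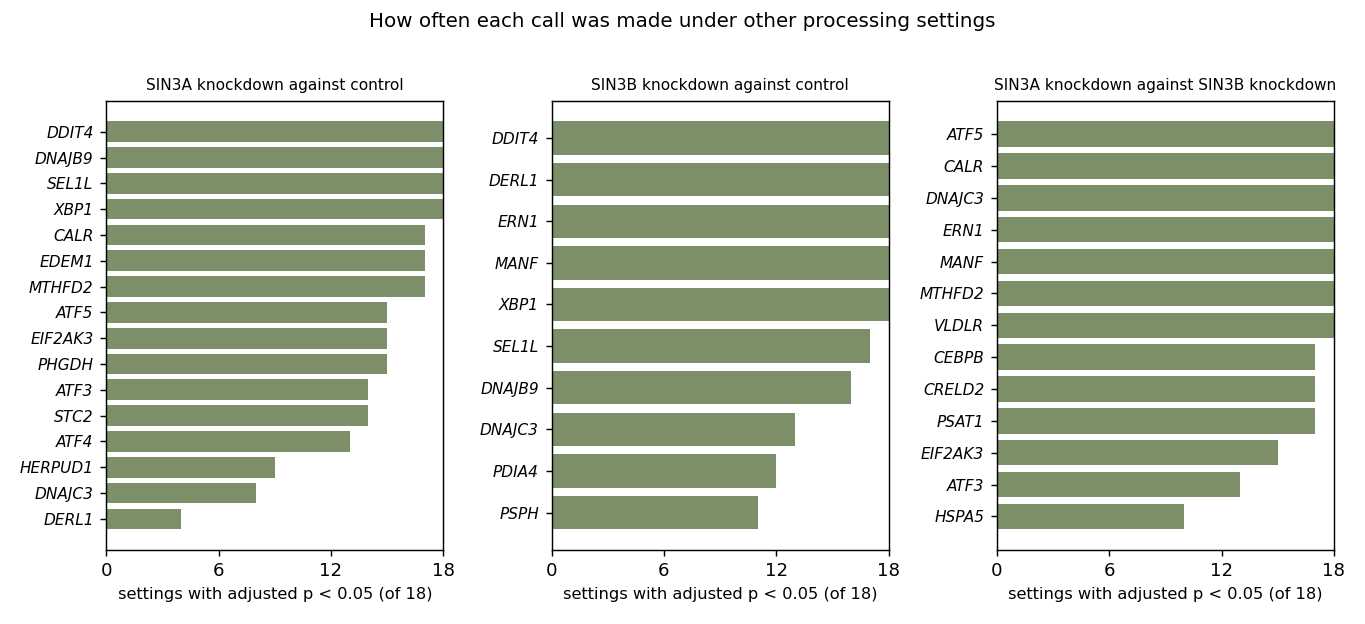
Number of 18 other processing settings (x axis, 9 of them leaving out 1 library each) in which each gene called with all libraries and TMM scaling passed an adjusted p of 0.05, by comparison. Bars reach 18 for DDIT4, DNAJB9, SEL1L and XBP1 with SIN3A siRNA, and for DDIT4, DERL1, ERN1, MANF and XBP1 with SIN3B siRNA, and DERL1 with SIN3A siRNA is the shortest at 4.

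Levels can be compared between genes only per length. In control libraries, as CPM per kb of annotated exon, CALR (379.2), ATF4 (304.8), HSPA5 (279.0) and HSP90B1 (221.7) stood highest of the 46, and VLDLR (1.30), ERN1 (1.63), ASNS (1.79) and DNAJB9 (4.56) lowest. The place of ASNS is uncertain, because its deposited count may hold only part of its reads. On this scale ATF4 mRNA stood far above that of its partners CEBPG (19.2), DDIT3 (17.5) and CEBPB (10.4). The same 4 genes led with each siRNA.

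Related genes outside the 46 gave a further view of each arm. Of 47 other genes of ER folding, ERAD and secretion, 12 rose (25.5%) and 3 fell (6.38%) with SIN3A siRNA (edgeR, same threshold). With SIN3B siRNA 3 rose (6.38%) and 4 fell (8.51%). Of all genes tested, 12.2% rose and 10.8% fell with SIN3A siRNA, and 12% rose and 11.6% fell with SIN3B siRNA. Calls without 1 library were not counted for this list or the lists below. Under upper-quartile scaling the SIN3A counts of the 47 genes were 8 and 4, and their median turned to -0.01 from 0.06. The lowest adjusted p-values with SIN3A siRNA belonged to CREB3L2, a sensor of the ATF6 family (0.57 ± 0.09), the retrieval receptor KDELR3 (-0.58 ± 0.11) and the oxidative folding factor ERP44 (0.39 ± 0.08). With SIN3B siRNA the signal peptidase subunit SPCS3 (0.64 ± 0.11) and the translocation factor SEC62 (0.53 ± 0.09) rose. KDELR3 also fell with SIN3B siRNA (-0.55 ± 0.11). In the direct comparison 11 of the 47 were higher (23.4%) and 2 lower (4.26%) with SIN3A siRNA, where 14.5% of all genes were higher and 12.6% lower. These calls were led by SPCS3 (-0.75 ± 0.11), CREB3L2 (0.54 ± 0.09) and EDEM2 (0.64 ± 0.11).

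Of 34 other ATF4 target genes, 3 rose (8.82%) and 5 fell (14.7%) with SIN3A siRNA, beside 12.2% and 10.8% of all genes. With SIN3B siRNA 6 rose (17.6%) and 4 fell (11.8%), beside 12% and 11.6% of all genes. The 3 with the lowest adjusted p with SIN3A siRNA all fell: ALDH1L2, a mitochondrial folate enzyme (-0.51 ± 0.09), and the amino acid transporters SLC1A4 (-0.57 ± 0.11) and SLC7A1 (-0.32 ± 0.07). With SIN3B siRNA, the mTORC1 inhibitor SESN2 (0.43 ± 0.07) and the cystine transporter SLC7A11 (1.14 ± 0.19) rose and the alanyl-tRNA synthetase AARS (-0.43 ± 0.07) fell. In the direct comparison 3 were higher (8.82%) and 10 lower (29.4%) with SIN3A siRNA, beside 14.5% and 12.6% of all genes. SLC7A11 stood at -1.25 ± 0.19, SLC38A2 at -0.51 ± 0.08 and AARS at 0.38 ± 0.07. SESN2 rose in both knockdowns while DDIT4, which also restrains mTORC1, fell in both.

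Of 16 genes of the eIF2 kinases, eIF2 and its exchange factor eIF2B, none passed with SIN3A siRNA in edgeR (unadjusted p under 0.05 in 1 higher and 1 lower), and DESeq2 and limma each called 1 higher. With SIN3B siRNA 3 rose (18.8%), among them EIF2B1 (0.25 ± 0.07) and the GCN2 inhibitor IMPACT (0.41 ± 0.12), and EIF2B4 alone fell (6.25%, at -0.40 ± 0.08). Of all genes, 12% rose and 11.6% fell with SIN3B siRNA. IMPACT was lower with SIN3A siRNA than with SIN3B siRNA (-0.73 ± 0.12), as was EIF2AK2, the kinase PKR (-0.39 ± 0.10), and EIF2B4 was higher (0.45 ± 0.08). Of 17 cytosolic heat shock genes, 3 rose and 3 fell (17.6% each) with SIN3A siRNA, beside 12.2% and 10.8% of all genes. With SIN3B siRNA 2 of the 17 rose (11.8%) and 1 fell (5.88%). HSPA1A (-1.13 ± 0.14) and HSPA1B (-0.80 ± 0.08) fell and HSPB1 rose (0.37 ± 0.09) with SIN3A siRNA, while HSPA1B (0.28 ± 0.08) and CHORDC1 (0.41 ± 0.07) rose and HSP90AB1 (-0.44 ± 0.07) fell with SIN3B siRNA. The rise of CHORDC1 was lost with the GC and length offsets (0.04, edgeR adjusted p = 0.77). HSPA1A and HSPA1B are near-identical copies, so the split of reads between them is uncertain.

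**Figure D4:**
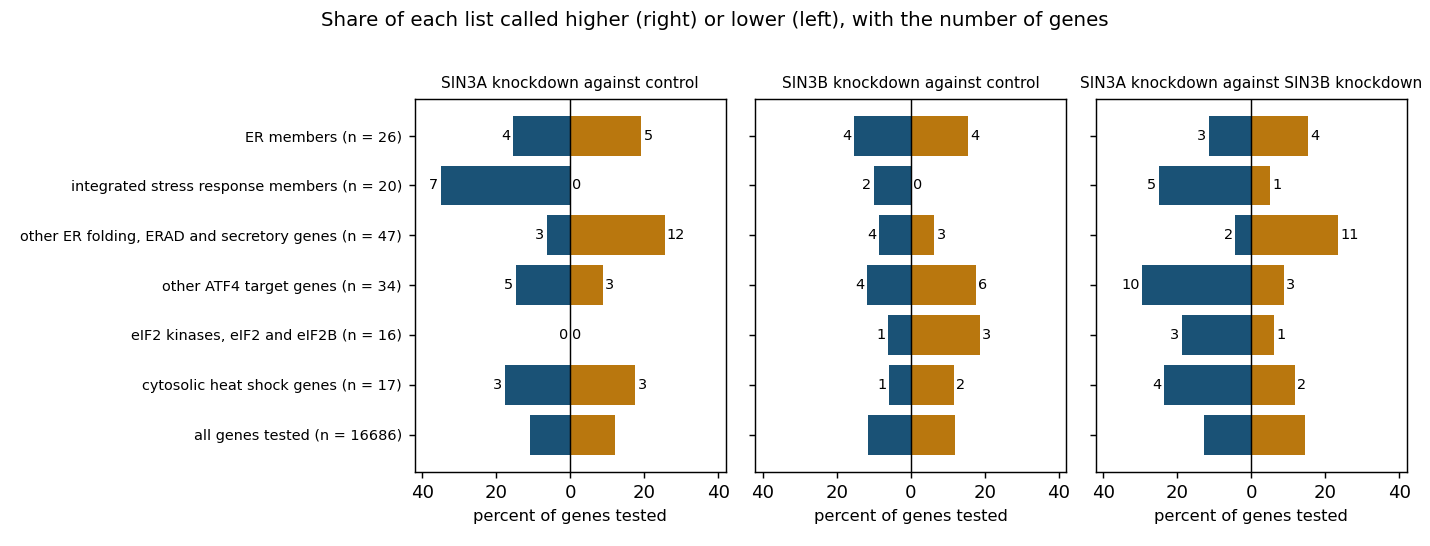
Percent of genes tested (x axis) that were called higher (right, ochre) or lower (left, blue) in each comparison, for the 26 ER genes, the 20 genes around ATF4, 4 lists of related genes and all 16686 genes tested, with the number of genes printed at the bars of each list. With SIN3A siRNA against control, 7 of the 20 genes around ATF4 fell (1 without control replicate 3) and none rose, and 12 of 47 other ER genes rose and 3 fell. Of all genes tested, 12.2% rose and 10.8% fell in that comparison.

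Each knockdown also went with a 7-base word in 3′ UTRs, and its place among the 46 genes is given beside their results. The words were found by these same fold changes, so they are a description and not a test. Over 10810 genes, log2 fold changes were limited at the extremes and adjusted for GC content and length. For each word held by at least 100 genes, the mean with it minus the mean without it was divided by its standard error. The 2 lowest words were kept. For SIN3A siRNA they were GGTCTAA and AGGTCTA, held by 8.23% of the genes searched. The mean adjusted log2 fold change of these genes was -0.15, where that of genes without the words was 0.01. For SIN3B siRNA the words were ACAGCCT and CAGCCTA, held by 20.1% of genes, with adjusted means of -0.10 and 0.02. Only the strand of the mRNA was searched, in GENCODE 29 transcripts.

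Of the 46 genes, 6 held a SIN3A word (HSPA5, DNAJC3, EDEM1, ATF6, EIF2AK3 and VLDLR). With SIN3A siRNA 2 of the 6 fell (DNAJC3 and EIF2AK3) and 1 rose (EDEM1), with a median log2 fold change of -0.12. Of the 40 without it 9 fell and 4 rose, with a median of -0.06. Of all genes tested, 10.8% fell and 12.2% rose with SIN3A siRNA. A SIN3B word was held by 7 (DNAJB9, DNAJC3, MANF, SEL1L, DERL2, ATF6 and ERN1). With SIN3B siRNA 2 of the 7 fell (MANF and ERN1) and 3 rose (DNAJB9, DNAJC3 and SEL1L), with a median of 0.14. Of the 39 without it 4 fell and 1 rose, with a median of -0.0066. Of all genes tested, 11.6% fell and 12% rose with SIN3B siRNA. ERN1 held 3 copies, more than any other of the 46 genes, in a 3′ UTR of 4846 bases, where that of MANF has 308. Copies were not scaled to length. Sites in MANF and ERN1, in EIF2AK3 and DNAJC3, which fell with SIN3A siRNA, and in HSPA5, which did not pass, are shown with the word in capitals. The SIN3B sites of DNAJB9, DNAJC3 and SEL1L and the SIN3A site of EDEM1, where the gene rose, are not printed. The part of such words in these results was not tested. DDIT4 and XBP1, which fell in both knockdowns, held none of the 4 words. The number is the position of the word's first base, counted from 1 at the start of the 3′ UTR.
MANF, position 60, SIN3B word, chromosome 3: actcccaaaACAGCCTttttgtaat
ERN1, position 421, SIN3B word, chromosome 17: gcaccaagtACAGCCTtcactggag
ERN1, position 1392, SIN3B word, chromosome 17: aaatgcaatCAGCCTAccgtgtaag
ERN1, position 4749, SIN3B word, chromosome 17: ctaagttaaACAGCCTAtttttgtgc
EIF2AK3, position 658, SIN3A word, chromosome 2: ttggttgaaAGGTCTAgttttggga
DNAJC3, position 1416, SIN3A word, chromosome 13: ccattaaagGGTCTAAttttttttt
HSPA5, position 350, SIN3A word, chromosome 9: atttacactGGTCTAAtgtttgtga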

How the data were processed

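The deposited tables hold 9 poly-A RNA sequencing libraries of HEK293T cells, grouped by the sample titles. The authors' count table holds whole read counts per Ensembl gene and the authors' FPKM table holds the same genes. Trimmomatic 0.36, HISAT2 2.1.0, HTSeq, DESeq2 1.20.0 and GRCh38 are named in the submitters' processing notes; the strand setting is not given in the sources used here. FPKM values deposited by the authors imply lengths unrelated to GENCODE 29 exon lengths (Spearman rho 0.00789 across 10713 genes), so they were compared only within a gene. All 58734 IDs matched GENCODE 29, and 31909 genes had no count.

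The deposited counts went unchanged into edgeR 4.0.16, run under R 4.3.3. TMM scaling, filterByExpr (minimum count 10, minimum total 15) and a robust quasi-likelihood fit were used; the 9 libraries shared it, which leaves 6 residual degrees of freedom. P-values were adjusted by Benjamini-Hochberg over all genes tested in each comparison. The fit was tested on simulated data. Standard errors were taken from the log2 fold change and its F statistic. Alternatives were RLE and upper-quartile factors, no filter, DESeq2 1.42.0, limma 3.58.1 on log2(FPKM + 1), counts divided by 4, fits of only the 6 libraries compared, a block for replicate number, and leaving out each library; offsets for GC content and exon length were chosen after seeing the data. Replicate numbers are only names: same-numbered libraries deviated with correlations of -0.0607 to 0.0396. No library pair agreed within sampling noise.

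The 46 genes, the lists of related genes and the tests were chosen with earlier results of these data known. All 46 may be named; values of every library are given for 10 genes chosen by name and for the 6 called genes with the largest change in each comparison, and outside the 46 the 3 called genes with the lowest adjusted p of each list and comparison, of which 1 is not reported here. RefSeq promoter windows and GENCODE transcripts were searched in Python 3.11.15. Exon overlaps are given in bases, because the exon totals behind them differed from the exon lengths used for levels per length. The words in 3′ UTRs come from a scan of log2 fold changes adjusted for GC content and length in genes above 2 log2 CPM. Standard errors of the fit include variation among libraries, while floors cover counting error only. Figures were drawn with matplotlib 3.10.9.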

Additional observations from a re-analysis of the deposited data

How the results depend on the processing

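Directions of all called genes among the 46 held in each of the 18 alternatives; of 16 calls with SIN3A siRNA against control, 10 with SIN3B siRNA and 13 between the knockdowns, 4, 5 and 7 passed in all of them. Of the genes not called, 11 of 30 with SIN3A siRNA (most often ASNS and HSPA5, 7 alternatives each), 11 of 36 with SIN3B siRNA (P4HB and STC2, 5 each) and 4 of 33 between the knockdowns (ATF4, 6) were called in some alternative. With SIN3A siRNA 11 genes fell, 5 under limma on log2(FPKM + 1) and 7 in the fit of 6 libraries; with SIN3B siRNA 6 fell, 10 in the fit of 6 libraries; between the knockdowns 8 were lower, 5 under limma. Upper-quartile factors moved the medians to -0.1247 (SIN3A siRNA) and -0.04406 (SIN3B siRNA), and changed the split of all genes called to 1352 higher and 2313 lower, against 2029 and 1807, with SIN3A siRNA, where the median of all genes was -0.07. Leaving out 1 library gave 3 to 12 fallen and 3 to 7 risen genes with SIN3A siRNA (3 and 3 without control replicate 3), 4 to 8 fallen and 2 to 5 risen with SIN3B siRNA, and 4 to 9 lower and 5 to 6 higher between the knockdowns. The SIN3B siRNA median then ran from -0.07817 (without control replicate 2) to 0.02731. The SIN3A siRNA median ran from -0.09973 to -0.008216, and all genes called from 2635 to 3945 with SIN3A siRNA, 2658 to 4755 with SIN3B siRNA and 3373 to 4807 between the knockdowns. Offsets for GC content and exon length were chosen after seeing the data. With them 5 of the 26 ER genes rose and 7 fell with SIN3A siRNA, and 1 rose and 6 fell with SIN3B siRNA. Of the 20 genes around ATF4, 0 rose and 9 fell with SIN3A siRNA, and 2 rose and 3 fell with SIN3B siRNA. CHORDC1 then turned to -0.1808 (edgeR adjusted p = 0.0422) with SIN3A siRNA and SLC38A2 to -0.2123 (adjusted p = 0.0162) with SIN3B siRNA. Neither was called there by edgeR without the offsets. With the replicate block, which the labels do not support, 4 rose and 10 fell with SIN3A siRNA, 4 and 5 with SIN3B siRNA, and 5 and 8 were higher and lower between the knockdowns; HERPUD1 and DERL1 (SIN3A siRNA) and PSPH (SIN3B siRNA) lost their calls. The causes of these changes were not tested. Leaving out a library leaves 2 in its group, which the fit assumes to vary like the rest.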
